A study of Rattus norvegicus with 8 samples.

Results

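The forebrain part of the head was compared with the hindbrain part in rat embryos labelled Pax6 homozygous at E12.5, a stage of early neurogenesis. The comparison used the 2 arrays titled Pax6 homozygous Forebrain and the 2 titled Pax6 homozygous Hindbrain, 4 of the 8 arrays of the series, chosen by title. Each array was an Affymetrix rat U34A, and every probe set that was not a control of the array could enter. The other 4 arrays held the same parts of wild-type embryos of the same stage, and they are used here for the spread and to set the regional difference of the other genotype beside that of the mutants. The labels name neither the strain nor the Pax6 allele, and they do not say how many embryos or litters went into an array. Embryos were cut at the level of the forelimb and at the isthmus, so "forebrain" below also contains midbrain and the primordia of the eye and nose, and "hindbrain" also contains the pharyngeal arches and what lay between the isthmus and the forelimb. P-values therefore measure the spread between arrays, which can be technical. Fewer cells of a type and less RNA per cell cannot be told apart in such tissue.

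Pax6 is a transcription factor with a paired domain and a homeodomain that is made in the forebrain, the hindbrain ventricular zone, the eye and the nose, and embryos that lack it have no eyes or nose. The axis of the neural tube is set by transcription factors with nested domains: LIM- and Nkx-type homeodomain proteins mark parts of the forebrain, and Hox proteins mark the hindbrain and spinal cord. Neurons of the hindbrain are born earlier than most neurons of the forebrain, and muscle of the head and neck forms in the arches and somites, which lay in the hindbrain part.

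Intensities, the deposited brightness of a probe set on a linear scale, fell below 0 in 18.3% to 22.3% of the probe sets of an array. The size of the 5th percentile of an array was taken as its noise level; it was 524 and 287 on the forebrain and 389 and 243 on the hindbrain arrays of the mutants. The share of probe sets above that level was 50.3% and 55.7% in forebrain and 56.4% and 61.2% in hindbrain, and the part of this gap in the results was not tested. The 2 forebrain arrays correlated with r = 0.926 over log2 values and the 2 hindbrain arrays with r = 0.947. The Pax6 probe set S74393_s_at read 1243 and 927 in forebrain against 1194 and 1111 in hindbrain (log2 difference -0.10 ± 0.42 (SE), adjusted p = 0.998). Which part of the transcript it covers is not given in the sources used here, so it checks nothing about the labels.

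Of 5881 probe sets tested, 27 passed (0.459%; limma, adjusted p under 0.05), 8 of them higher in forebrain (0.136%) and 19 higher in hindbrain (0.323%). They name 17 genes, 5 higher in forebrain (Nkx2-1, Alx1, Lhx2, Dlk1 and Igfbp2) and 12 higher in hindbrain (Actc1, Ttr, S100a1, Hoxa5, Myh3, Tnnc2, Nefm, Nefl, Sst, Acta2, Calb2 and Ina), and 4 of the probe sets have no single gene name. Before adjustment 351 probe sets had p under 0.05, and 294 would do so at a uniform spread of p-values. Without overlap between the deposited intensities of the regions were 2092 probe sets (35.6%), 877 higher in forebrain (14.9%) and 1215 higher in hindbrain (20.7%). The median log2 difference over all tested probe sets, forebrain minus hindbrain, was -0.04. In 11 of the 19 probe sets higher in hindbrain no forebrain array rose above its noise level, and in 1 of the 8 higher in forebrain no hindbrain array did. For these the difference is given below as "at least N-fold", with both sides set at no less than the noise level.

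**Figure D1:**
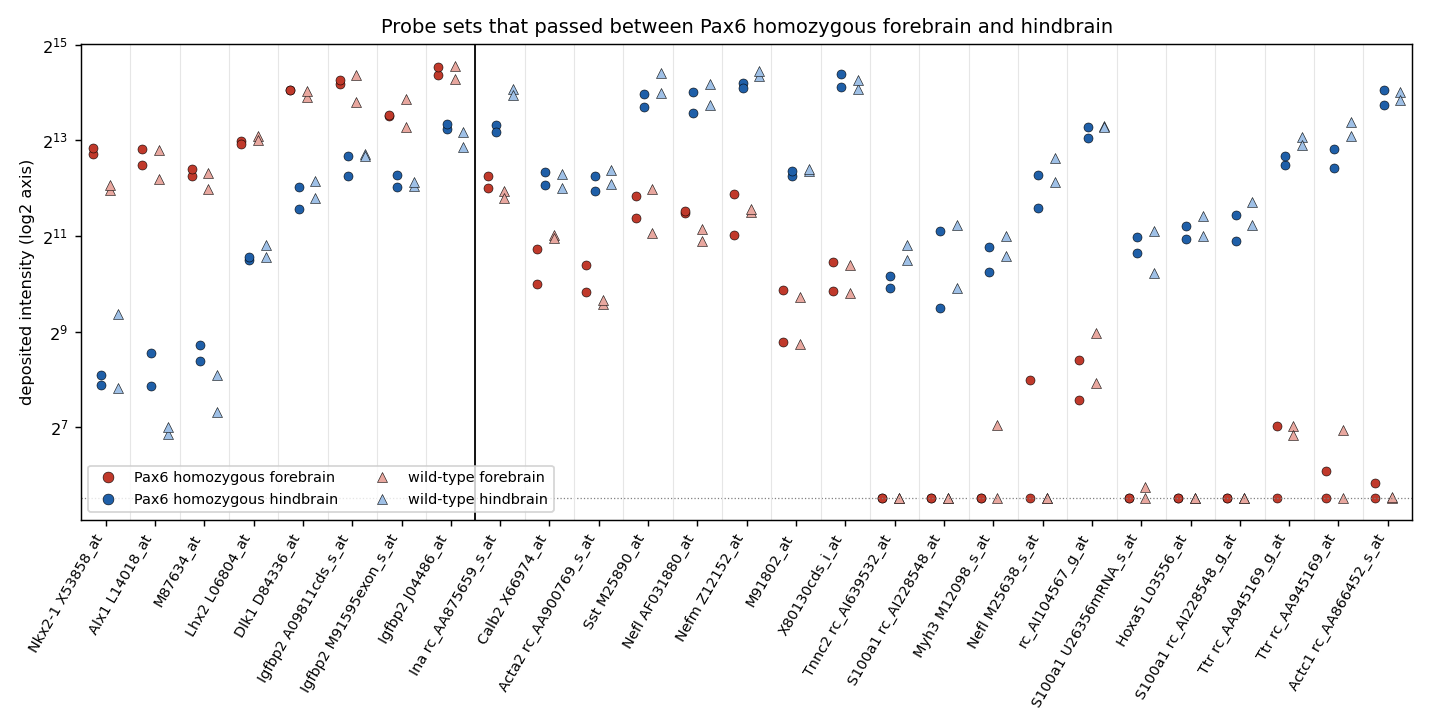
Deposited intensity (log2 axis) of the 27 probe sets that passed between forebrain (red) and hindbrain (blue) of Pax6 homozygous embryos, 1 point per array; circles are Pax6 homozygous and paler triangles wild-type arrays, values under the floor of 45.9 are drawn on the dotted line, and the vertical line parts the 8 probe sets higher in forebrain from the 19 higher in hindbrain. In each of the 27 the wild-type arrays also part in the same direction.

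Among transcription factors of the forebrain, Lhx2 (L06804_at), a LIM homeodomain protein of the telencephalon and eye field, read 8129 and 7768 in forebrain and 1444 and 1515 in hindbrain. Forebrain was 5.37-fold higher (log2 difference 2.43 ± 0.20, adjusted p = 0.000823), and the regions did not overlap. Nkx2-1 (X53858_at), a homeodomain protein of the hypothalamus and ventral telencephalon that is also made in thyroid and lung, read 6738 and 7300 in forebrain and 234 and 272 in hindbrain. It was 27.8-fold higher in forebrain (log2 difference 4.79 ± 0.46, adjusted p = 0.00156), and 1 of the hindbrain arrays stood just above its noise level. Alx1 (L14018_at), a homeodomain protein of the mesenchyme around the eye and nose, read 5695 and 7274 in forebrain, while neither hindbrain array, at 378 and 232, rose above noise. The forebrain level was at least 20.9-fold that of hindbrain (log2 difference 4.44 ± 0.37, adjusted p = 0.00102).

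The other forebrain and midbrain patterning factors gave no further call. Of 41 listed genes, 12 were tested, 2 passed as higher in forebrain and 0 as higher in hindbrain (over all 3553 genes, with 1 probe set each, 0.141% and 0.225% passed), and the median log2 difference was -0.18 against -0.03 over all genes. The deposited intensities of forebrain lay above those of hindbrain without overlap in 5 members and below in 5, where 15.5% and 20.3% of all genes did so. Dlx5 (D31734_g_at), a homeodomain factor of GABAergic progenitors and facial ectoderm, read 747 and 678 in forebrain and 299 and 281 in hindbrain (log2 difference 1.30 ± 0.42, adjusted p = 0.486). Pou3f1, a POU-domain factor, read 1007 and 918 against 481 and 519.9 (0.94 ± 0.36, adjusted p = 0.688). At the isthmus, where the cut was made, 3 of 13 listed genes were tested and 0 passed. Spry1, an inhibitor of FGF signalling, read 4583 and 4678 in forebrain and 1689 and 1045 in hindbrain (1.80 ± 0.33, adjusted p = 0.0633). Fgf17, an FGF of the isthmus and the rostral midline, read 670 and 531 in forebrain and lay below 0 on both hindbrain arrays (at least 1.94-fold, adjusted p = 0.101).

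Higher in hindbrain was Hoxa5 (L03556_at), a Hox protein of the caudal hindbrain and cervical cord, at 2378 and 1955 against values below 0 on both forebrain arrays (-77.8 and -27.7). The difference was at least 5.56-fold (log2 difference -5.55 ± 0.52, adjusted p = 0.00156), and the call was lost without hindbrain replicate 1 (adjusted p = 0.0785) or replicate 2 (0.0625). Of 32 genes in the list of Hox and hindbrain patterning factors 6 were tested, of which Hoxa5 alone passed (over all genes, 0.225% passed in this direction). Forebrain lay below hindbrain without overlap in 5 of the 6 (20.3% over all genes) and above it in 1 (15.5%), and the median log2 difference was -2.64. In 2 of the 6 no mutant array of either region rose above noise, so the order of their arrays lies within noise. Hoxd3 (M37569_at), another Hox gene of the hindbrain, read 50.2 and 93.8 in forebrain and 676 and 1540 in hindbrain (adjusted p = 0.0633). Phox2a, a homeodomain factor of visceral motor and noradrenergic neurons, read 188 and 239.7 in forebrain and 689 and 855 in hindbrain (-1.85 ± 0.78, adjusted p = 0.773). Ptf1a, a bHLH factor of the dorsal hindbrain and pancreas, lay below 0 in forebrain and at 406 and 599.7 in hindbrain (adjusted p = 0.576). No member of this list rose above noise on both forebrain arrays. Lhx2, Nkx2-1 and Hoxa5 were each higher in the region whose label they mark, but they are the members of their lists that passed. Of the 12 forebrain and midbrain factors tested, 7 had a negative difference, and 5 lay lower in forebrain without overlap. The genes that passed are thus no check of the region labels.

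The largest difference was in muscle. Actc1 (rc_AA866452_s_at), the actin of embryonic striated and cardiac muscle, read -71.9 and 56.7 in forebrain and 17000 and 13746 in hindbrain. Hindbrain was at least 39.4-fold higher (log2 difference -8.23 ± 0.33, adjusted p = 1.55e-05), and the call held in each of 16 alternative settings. Myh3 (M12098_s_at), the embryonic myosin heavy chain, read -26.1 and -88.0 in forebrain and 1748 and 1214 in hindbrain (at least 3.76-fold, log2 difference -4.99 ± 0.66, adjusted p = 0.0146). Tnnc2, troponin C of fast muscle, read -39.5 and -4.7 in forebrain and 956 and 1141 in hindbrain (at least 2.69-fold, -4.51 ± 0.60, adjusted p = 0.0146). Neither of the latter passed when any 1 of the 4 mutant arrays was left out, with adjusted p from 0.0709 to 0.212 for Myh3 and from 0.0567 to 0.35 for Tnnc2. Tnnc2 also missed without wild-type hindbrain replicate 1 (adjusted p = 0.0511) or replicate 2 (0.0592). The other 3 probe sets of Myh3 differed in the same direction without passing, by -1.96 to -2.21 on the log2 scale.

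Over the list of striated muscle, 41 of 64 genes were tested. Of these, 2 passed as higher in hindbrain (0.225% over all genes), Actc1 and Tnnc2, and 0 as higher in forebrain (0.141%). Counting any probe set of a gene made it 3, with Myh3. Hindbrain was above forebrain without overlap in 19 of the 41 (20.3% over all genes) and below in 3 (15.5%), and the median log2 difference was -0.56. Acta1, the skeletal muscle actin, read 130 and 66.3 in forebrain against 2264 and 1773 in hindbrain (-4.43 ± 0.87, adjusted p = 0.088). Myl11 (X00975_at), a fast-muscle myosin light chain, read 538.5 and 83.4 against 2097 and 1899 (-3.24 ± 0.75, adjusted p = 0.175). The summed intensity of the 41 genes was 57899 and 48263 in forebrain and 85096 and 79298 in hindbrain. Acta2 (rc_AA900769_s_at), the smooth muscle actin that early striated muscle also makes, read 909.5 and 1348 in forebrain and 3934 and 4873 in hindbrain (-1.98 ± 0.28, adjusted p = 0.02). Acta2 has 3 probe sets that did not give 1 value: the others differed by -3.30 (adjusted p = 0.141) and -0.31 (adjusted p = 0.998). The call on rc_AA900769_s_at held in 6 of 16 settings and was lost with the 4 mutant arrays alone (adjusted p = 0.0624). The call on Acta2 was lost without forebrain replicate 1 (adjusted p = 0.109) and without any 1 of the 4 hindbrain arrays (0.108 and 0.328 for the mutant, 0.0511 and 0.0574 for the wild-type arrays), and with quantile normalization (0.0576). Acta2 and Actc1 encode near-identical actins, and 2 further probe sets that passed (X80130cds_i_at, -4.08 ± 0.28, and rc_AI104567_g_at, at least 23.7-fold, -5.18 ± 0.41) are annotated to both, so a share of their signal cannot be placed. Of 7 smooth muscle genes tested 0 passed by their brightest probe set, and the median log2 difference was -0.19.

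S100a1, a calcium-binding protein of heart and striated muscle, passed on 3 of 4 probe sets. On rc_AI228548_g_at it read -136 and -66.0 in forebrain and 1917 and 2763 in hindbrain (at least 5.94-fold, log2 difference -5.65 ± 0.52, adjusted p = 0.00156). That call was lost without hindbrain replicate 2 (adjusted p = 0.0816). Another of the 3, rc_AI228548_at, has the same clone in its name, so they are not independent, and its call was lost in 13 of 16 settings. The third, U26356mRNA_s_at, was lost without hindbrain replicate 1 or 2 (adjusted p = 0.0973 and 0.203). The probe set that did not pass, S68809_s_at, stood above noise in both regions, at 906 and 671 in forebrain and 2461 and 2651 in hindbrain (-1.71 ± 0.30, adjusted p = 0.0633).

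The 250 bases before the start of transcription are printed for 3 muscle genes higher in hindbrain and for 2 transcription factors higher in forebrain, chosen after their values were seen and not as the genes with the largest differences. They are RefSeq sequences on build GRCr8, which hold 12 of the 17 genes; Calb2, Hoxa5, Nefl, Nefm and S100a1 had no entry. Capitals mark matches, on either strand, to the E-box CANNTG, bound by bHLH factors such as the myogenic ones, and to TATAAA. Positions are chr3:121271828-121272077 (minus strand) for Actc1, chr10:52268935-52269184 (plus strand) for Myh3, chr3:173935340-173935589 (minus strand) for Tnnc2, chr3:42535494-42535743 (plus strand) for Lhx2 and chr6:79734868-79735117 (minus strand) for Nkx2-1.
Actc1: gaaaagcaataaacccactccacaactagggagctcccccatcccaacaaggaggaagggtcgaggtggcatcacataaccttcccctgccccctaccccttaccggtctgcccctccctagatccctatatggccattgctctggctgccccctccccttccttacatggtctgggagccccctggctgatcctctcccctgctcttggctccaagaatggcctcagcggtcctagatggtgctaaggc
Myh3: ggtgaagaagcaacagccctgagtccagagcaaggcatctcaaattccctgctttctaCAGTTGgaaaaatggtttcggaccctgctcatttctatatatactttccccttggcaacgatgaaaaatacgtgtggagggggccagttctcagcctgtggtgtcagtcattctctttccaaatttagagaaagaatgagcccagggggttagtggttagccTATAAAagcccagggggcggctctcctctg
Tnnc2: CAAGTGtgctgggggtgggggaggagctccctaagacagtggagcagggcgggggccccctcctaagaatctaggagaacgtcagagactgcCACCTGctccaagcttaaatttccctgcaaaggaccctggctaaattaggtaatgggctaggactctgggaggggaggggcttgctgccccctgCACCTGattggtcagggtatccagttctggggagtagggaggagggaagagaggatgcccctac
Lhx2: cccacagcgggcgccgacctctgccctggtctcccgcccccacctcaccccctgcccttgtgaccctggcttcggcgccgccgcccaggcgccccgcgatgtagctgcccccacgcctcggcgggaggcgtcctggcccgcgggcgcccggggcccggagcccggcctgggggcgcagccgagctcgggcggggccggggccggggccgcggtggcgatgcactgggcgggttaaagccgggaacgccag
Nkx2-1: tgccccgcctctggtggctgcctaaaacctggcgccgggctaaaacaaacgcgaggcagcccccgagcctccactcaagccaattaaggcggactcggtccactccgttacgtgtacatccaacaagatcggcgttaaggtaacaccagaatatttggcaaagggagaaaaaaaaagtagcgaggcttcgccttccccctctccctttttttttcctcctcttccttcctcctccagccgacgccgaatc
In these windows Tnnc2 holds 3 E-boxes, the first bases of which lie 250, 158 and 64 bases before the start. Myh3 holds 1 E-box, and TATAAA 30 bases before the start. Actc1, the muscle gene with the largest difference, holds no match to either motif, and neither do Lhx2 and Nkx2-1. Over the genes with a sequence, CANNTG was in 6 of 7 higher in hindbrain and in 1 of 5 higher in forebrain, and in 65.5% of 33469 promoters in the table. TATAAA was in 1 of 7 and 0 of 5, against 12.9%, and the homeodomain motif TAATTA in 1 of 7 (Sst) and 0 of 5, against 4.86%. The motifs share no match with one another. The median GC content was 64% for the genes higher in forebrain, 54% for those higher in hindbrain and 51.2% for the table, and its part in the motif counts was not tested. A match is a run of letters and not a site shown to be bound.

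Of the neuronal intermediate filament genes described here Nefm, Nefl and Ina passed as higher in hindbrain and Prph did not pass. Nefm (Z12152_at), the medium neurofilament subunit, read 2072 and 3765 in forebrain and 18680 and 17500 in hindbrain (6.47-fold, log2 difference -2.69 ± 0.26, adjusted p = 0.00156). Nefl (AF031880_at), the light subunit, read 2866 and 2953 against 12096 and 16516 (4.86-fold, -2.28 ± 0.23, adjusted p = 0.00213), and its other probe set M25638_s_at passed too (at least 10.1-fold, adjusted p = 0.02). Ina, alpha-internexin, a filament protein of young neurons, read 4133 and 4910 in forebrain and 10302 and 9203 in hindbrain on rc_AA875659_s_at (2.16-fold, -1.11 ± 0.17, adjusted p = 0.0353). The groups did not overlap for any of these 4 probe sets. On the other Ina probe set, M73049_at, the difference was -1.21 ± 0.20 and missed the threshold (adjusted p = 0.0532). The Ina call was lost when any 1 of the 4 mutant arrays (adjusted p from 0.0954 to 0.283) or of the wild-type hindbrain arrays (0.0841 and 0.088) was left out, and with the 4 mutant arrays alone (0.106). That of Nefl on M25638_s_at was lost without mutant hindbrain replicate 1 (log2 difference -5.53) or 2 (-4.83), or wild-type hindbrain replicate 1 or 2. It was also lost with the 4 mutant arrays alone (adjusted p = 0.0699).

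Nefl and Nefm are in the lists of neuronal differentiation and of motor neurons. Of 28 genes of neuronal differentiation tested, these 2 passed as higher in hindbrain (0.225% over all genes) and 0 as higher in forebrain (0.141%). The median log2 difference was -0.33, and hindbrain lay above forebrain without overlap in 18 genes (20.3% over all genes) and below in 1 (15.5%). Of 16 genes of motor and cholinergic neurons tested the same 2 passed (0.225% over all genes), and the median was -1.33. Hindbrain was above forebrain without overlap in 10 of the 16 (20.3% over all genes) and below in 1 (15.5%). Prph, peripherin, a filament of motor and sensory neurons, stood at noise in forebrain (250.3 and 181) and at 1131 and 1235 in hindbrain (at least 3.05-fold, adjusted p = 0.0814). Gfra1, a receptor subunit for GDNF, read 304 and 135 against 849 and 839.6 (-2.06 ± 0.74, adjusted p = 0.593). Isl1, a LIM homeodomain factor of motor and sensory neurons and arch mesoderm, read 805 and 955 in forebrain and 1726 and 2705 in hindbrain (-1.30 ± 0.70, adjusted p = 0.97). Neurod1, a bHLH factor of neuronal differentiation, read 2109 and 2083 against 4693 and 4059 (-1.06 ± 0.20, adjusted p = 0.0726).

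Sst (M25890_at), the neuropeptide somatostatin, was 4.71-fold higher in hindbrain, at 13354 and 16130 against 3678 and 2639 in forebrain (-2.24 ± 0.32, adjusted p = 0.02). Its other probe set differed by -2.05 ± 0.98 (adjusted p = 0.894). Sst was the 1 gene that passed among 15 tested of the pituitary and hypothalamus list, whose median was -0.06. Over all genes 0.225% passed as higher in hindbrain. Calb2 (X66974_at), calretinin, a calcium-binding protein of many interneurons and cranial sensory neurons, read 1691 and 1018 in forebrain and 4288 and 5192 in hindbrain (3.60-fold, -1.85 ± 0.28, adjusted p = 0.0324). Both calls depended on single arrays, and that of Calb2 also missed with the 4 mutant arrays alone (adjusted p = 0.106). That of Sst was lost when any 1 of the 4 mutant arrays was left out (adjusted p from 0.0659 to 0.278). That of Calb2 was lost in 12 of 16 settings, among them those without forebrain replicate 2 (0.155), hindbrain replicate 1 (0.159), hindbrain replicate 2 (0.416) and each of the 4 wild-type arrays (0.0538 to 0.0725).

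Neurons of other transmitters gave no call except where a gene above is listed. Of 10 genes of GABA and glycine neurons tested 0 passed, and the median log2 difference was 0.35. Over all genes 0.141% passed as higher in forebrain and 0.225% as higher in hindbrain, so 0 in a short list says little. Gad1, which makes GABA, read 741 and 455 in forebrain and stood at noise in hindbrain (235 and 167; at least 1.89-fold, adjusted p = 0.488). Tac1, the precursor of substance P, read 1586 and 1928 in forebrain and 335 and 251.0 in hindbrain (2.59 ± 0.48, adjusted p = 0.0651). Of 12 monoamine, 15 glutamate and 15 sensory and autonomic genes tested 0 passed in each list. Ngfr, a neurotrophin receptor of sensory neurons and neural crest, read 2309 and 2211 against 4533 and 4266 (-0.96 ± 0.21, adjusted p = 0.131).

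Genes of neural progenitors gave no call, where 0.141% of all genes passed as higher in forebrain and 0.225% as higher in hindbrain. Of 24 tested 0 passed, the median log2 difference was -0.27, and hindbrain lay above forebrain without overlap in 11 (20.3% over all genes) and below in 2 (15.5%). Fabp7 (U02096_at), the fatty acid binding protein of radial glia, read 528 and 472 in forebrain and 1190 and 1205 in hindbrain (-1.26 ± 0.23, adjusted p = 0.0637). In the other direction Ptprz1, a receptor phosphatase of radial glia, read 1745 and 2593 in forebrain and 589.7 and 533 in hindbrain (1.92 ± 0.35, adjusted p = 0.0651). Of 24 cell cycle genes tested 0 passed, and forebrain lay above hindbrain without overlap in 8 (15.5% over all genes) and below in 3 (20.3%). Ccnd1, cyclin D1, read 15314 and 18161 in forebrain and 9769 and 9689 in hindbrain (0.78 ± 0.16, adjusted p = 0.0982).

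Dlk1 and Igfbp2, growth regulators, were higher in forebrain. Dlk1 (D84336_at), a transmembrane protein of the Notch ligand family encoded by an imprinted gene, read 16964 and 17028 in forebrain and 4167 and 3007 in hindbrain (4.80-fold, log2 difference 2.26 ± 0.21, adjusted p = 0.00156). Igfbp2, a secreted binding protein for insulin-like growth factors, passed on each of its 3 probe sets. On A09811cds_s_at it read 18442 and 19648 in forebrain and 4858 and 6549 in hindbrain (3.37-fold, 1.75 ± 0.22, adjusted p = 0.0117); J04486_at gave 2.25-fold and M91595exon_s_at 2.58-fold. The 3 probe sets measure 1 gene and are not replicates. Each of these calls was lost without forebrain replicate 1 or 2 and without hindbrain replicate 1 (adjusted p from 0.0789 to 0.283), whereas that of Dlk1 held in all 16 settings. That on J04486_at was also lost without hindbrain replicate 2 (0.226), as was that on M91595exon_s_at (0.21), which further missed without wild-type hindbrain replicate 1 (0.0785) or 2 (0.0845). Of 15 tested genes in the list of insulin-like growth factor genes Dlk1 and Igfbp2 passed as higher in forebrain (0.141% over all genes). As higher in hindbrain 0 passed (0.225%), and the median log2 difference of the list was -0.12. Igfbp3, another binding protein, read 1187 and 891 in forebrain and 1886 and 2362 in hindbrain (-1.04 ± 0.28, adjusted p = 0.303). A further Igfbp3 probe set, rc_AI009405_s_at, read 613 and 474 in forebrain and 1459 and 1310 in hindbrain (-1.36 ± 0.37, adjusted p = 0.303). In wild-type rc_AI009405_s_at passed as higher in hindbrain (-2.49 ± 0.37, limma, adjusted p = 0.0186).

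Ttr, transthyretin, the carrier of thyroxine and retinol-binding protein made by choroid plexus and liver, was higher in hindbrain on both of its probe sets. On rc_AA945169_at it read 67.7 and -75.4 in forebrain and 5507 and 7258 in hindbrain (at least 16.3-fold, log2 difference -6.83 ± 0.52, adjusted p = 0.000784), and on rc_AA945169_g_at the difference was at least 15.7-fold. Both names carry the same clone. Both calls held in all 16 settings. Of 22 genes of foregut, liver and epithelium tested, Ttr passed as higher in hindbrain (0.225% over all genes). Nkx2-1, described above, passed as higher in forebrain (0.141%). Of the 22, 16 stood above noise on both hindbrain arrays and 12 on both forebrain arrays. Without overlap 5 lay higher in hindbrain (20.3% over all genes) and 2 higher in forebrain (15.5%). The liver gene Alb, chosen after its values were seen, stood at 463 and 374 in forebrain. In hindbrain it stood at 451 and 305, above the noise levels of those arrays. Afp, another liver gene chosen in the same way, stood at 100.5 and 142.6 in hindbrain, below those levels. The source of Ttr was not tested. Krt19, a keratin of simple epithelia, read 154 and 120 in forebrain and 754 and 873 in hindbrain (at least 2.09-fold, adjusted p = 0.108). Ttr was also the 1 gene of the retinoic acid list that passed among 13 tested (0.225% over all genes). Of these 13, 8 lay higher in hindbrain (20.3% over all genes) and 1 higher in forebrain (15.5%) without overlap. Cyp26b1, which degrades retinoic acid, read 528 and -22.7 in forebrain and 1152 and 835 in hindbrain (-2.66 ± 0.94, adjusted p = 0.576).

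Over all genes 0.141% passed as higher in forebrain and 0.225% as higher in hindbrain, so 0 calls in a short list say little. Genes of other tissues in the dissections gave 0 calls. These were lens (11 tested), olfactory (9), cartilage, bone and fibrous matrix (26), pharyngeal arch and endothelin (7), blood (14), macrophage and leukocyte (9), endothelium and pericytes (7) and secreted patterning signals (28). Among head mesenchyme and neural crest genes Alx1 passed as higher in forebrain, 1 of 12 tested (0.141% over all genes), and the median log2 difference was -0.27. The summed intensity of the 14 blood genes was 161405 and 160365 in forebrain and 151982 and 154330 in hindbrain. Hbb, beta globin, read 13646 and 14124 against 11150 and 13414 (0.18 ± 0.16, adjusted p = 0.998). Shh, the ventral midline signal, read 2605 and 1410 in forebrain and 991 and 957 in hindbrain (0.98 ± 0.45, adjusted p = 0.858). Of the 11 lens genes 0 lay higher in forebrain without overlap (15.5% over all genes) and 4 lay lower (20.3%).

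**Figure D2:**
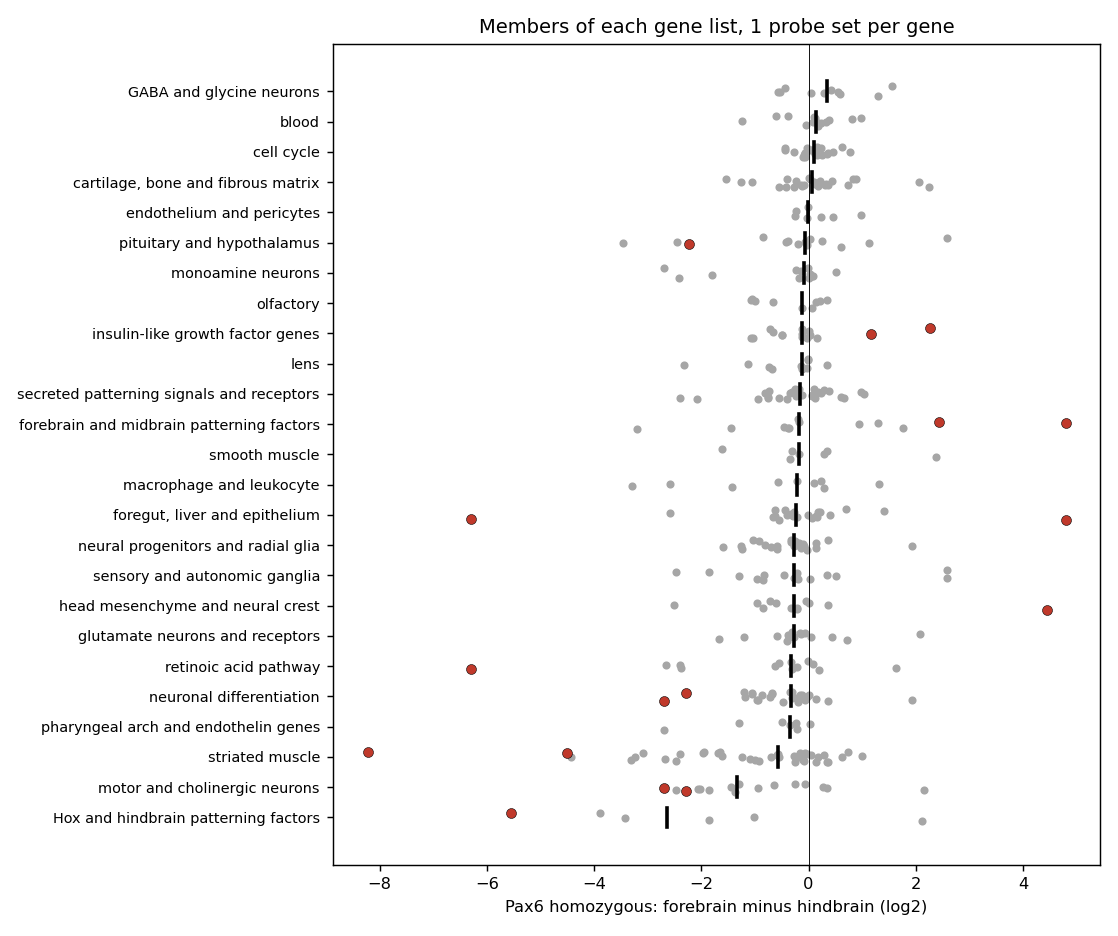
Log2 difference, forebrain minus hindbrain, in Pax6 homozygous embryos for each tested gene (1 point, the brightest probe set) of the lists with 6 or more tested members, ordered by their median (black bar); larger red points passed the test. The Hox and hindbrain patterning list has the lowest median (-2.64) and GABA and glycine neurons the highest (0.35); vertical scatter within a row carries no value.

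The wild-type embryos were then set beside the mutants; no array is shared between these comparisons, though all 8 gave the estimate of the spread. In wild-type 46 probe sets passed (0.782%), 12 higher in forebrain (0.204%) and 34 higher in hindbrain (0.578%). Of the 27 probe sets of the mutants 26 were among them, 96.3% of the mutant and 56.5% of the wild-type calls. By gene these were 16 of 17 (94.1%) and of 29 (55.2%). All 27 had the same sign in wild-type, and their wild-type arrays did not overlap either. The share of all tested probe sets without overlap in wild-type was not counted. In the mutants it was 14.9% higher in forebrain and 20.7% higher in hindbrain. The 1 of the 27 that did not pass in wild-type was Calb2. It read 2069 and 2002 in wild-type forebrain and 4114 and 5001 in wild-type hindbrain (log2 difference -1.16, adjusted p = 0.204). Over the calls higher in hindbrain the median log2 difference was -4.78 in the mutants and -4.84 in wild-type. Over those higher in forebrain it was 2.34 and 2.18. In 11 of the 19 calls higher in hindbrain no mutant forebrain array rose above noise, and differences of such dim probe sets depend on the floor. The mutant median of these 19 is the value of S100a1 on rc_AI228548_at, which passed in 3 of 16 settings. How much of the closeness of the medians comes from the floor was not tested. Across 5881 probe sets the 2 regional differences correlated with r = 0.407, and with r = 0.457 across the 3743 above noise on all 8 arrays; probe sets are not independent replicates.

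**Figure D3:**
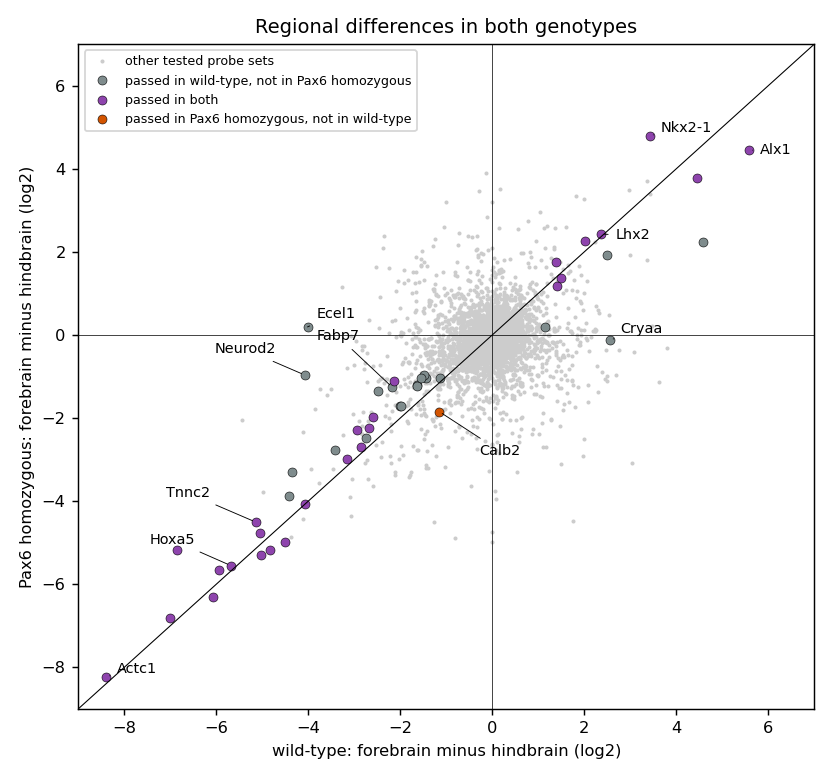
Log2 difference, forebrain minus hindbrain, of 5881 probe sets in wild-type (horizontal axis) and Pax6 homozygous embryos (vertical axis), with the line of equality; 26 probe sets passed in both (purple), 20 in wild-type and not in the mutants (dark grey) and 1 in the mutants and not in wild-type (orange). The purple points lie along the line, and Cryaa and Ecel1 lie near 0 on the vertical axis.

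Of the 46 wild-type calls, 44 had the same sign and no overlap in the mutants. Over all tested probe sets 14.9% lay higher in forebrain and 20.7% higher in hindbrain without overlap in the mutants. The exceptions among the 46 were Cryaa and Ecel1. Cryaa (U47921_s_at), a lens crystallin, read 4919 and 5254 in wild-type forebrain and 1018 and 737 in wild-type hindbrain. In the mutants it read 1303 and 683 in forebrain and 1189 and 894 in hindbrain, with overlap (-0.13 ± 0.37, adjusted p = 0.998). Ecel1 (Y16188_at), a neuronal endopeptidase, read 85.9 and 88.3 in wild-type forebrain and 1342 and 1486 in wild-type hindbrain. In the mutants it read 407 and 324 against 339 and 299 (0.19 ± 0.50, adjusted p = 0.998).

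The test of the difference between genotypes, the interaction, passed for 0 of 5881 probe sets (limma, smallest adjusted p 0.9995). Before adjustment 112 had p under 0.05, fewer than the 294 of a uniform spread of p-values. With 0 passing, a regional difference that passed in 1 genotype is not shown to be absent from the other. Among the smallest unadjusted p-values Ecel1 had an interaction of 4.21 ± 0.71, Cryaa of -2.68 ± 0.52 and Crybb3, a beta crystallin, of -4.76 ± 0.998 (log2, mutant minus wild-type regional difference). For Ecel1 this value rests on wild-type forebrain intensities of which both lay below noise, and raising the floor to 497, the median of all values, gave 1.51 (limma, adjusted p = 0.00944). Marcks (rc_AA859896_at), an actin-binding substrate of protein kinase C, read 1424 and 1203 in mutant forebrain and 3095 and 3240 in mutant hindbrain, and 4077 and 4896 against 3104 and 3633 in wild-type (interaction -1.69 ± 0.32). For Ina on rc_AA875659_s_at, which passed in both genotypes, the hindbrain excess was 2.16-fold in the mutants and 4.38-fold in wild-type (interaction 1.02 ± 0.25). The other Ina probe set, M73049_at, gave 2.32-fold in the mutants and 3.10-fold in wild-type, with a smaller interaction (0.42 ± 0.29). Aldh1a1, a retinaldehyde dehydrogenase of the dorsal retina and midbrain, was named from the retina list and not for its interaction (-1.28 ± 0.43). It read 1896 and 1257 in mutant forebrain and 1768 and 1194 in mutant hindbrain. In wild-type it read 4504 and 5075 against 2047 and 1672, a difference that did not pass (limma, adjusted p = 0.138). The count of 0 changed with the processing: 4 probe sets passed without an intensity trend in the variance, Ecel1 among them (adjusted p = 0.0186), 8 with the floor at the pooled median, again with Ecel1 (0.00944), and 13 when dim probe sets were not filtered out, where Ecel1 was not one of them. It also changed with the arrays, to 1 without wild-type forebrain replicate 1 (Stk38, adjusted p = 0.0186) and 1 without wild-type hindbrain replicate 1 (Atp6v0a1, adjusted p = 0.0163); these genes were chosen after their values were seen.

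**Figure D4:**
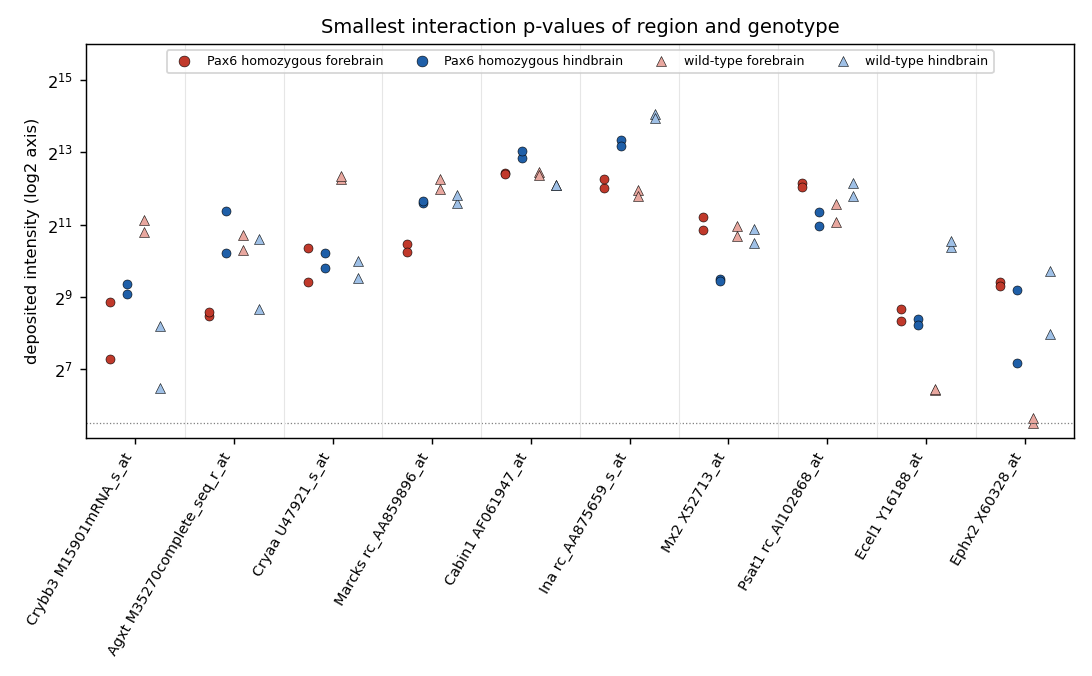
Deposited intensity (log2 axis) on each of the 8 arrays for the 5 genes in each direction with the smallest unadjusted p in the interaction of region and genotype; colours and symbols are as in the plot of the 27 probe sets, and values under the floor of 45.9 lie on the dotted line. Wild-type forebrain stands above the other 3 groups for Cryaa and Crybb3, and none of the 10 passed the interaction test.

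The 2 probe sets that passed without any gene symbol were M87634_at, at 4915 and 5416 in forebrain and 335 and 419 in hindbrain (13.8-fold, 3.79 ± 0.35, adjusted p = 0.00156), and M91802_at, at 933 and 442 against 4877 and 5261 (7.88-fold, -2.98 ± 0.42, adjusted p = 0.02). The first held in all 16 settings and the second in 8; it was lost without mutant forebrain replicate 2 (adjusted p = 0.123), mutant hindbrain replicate 1 (0.169) or 2 (0.278) and wild-type hindbrain replicate 1 (0.055) or 2 (0.0592). Counting every setting, 10 of the 27 calls held throughout: those of Actc1, Ttr (both), Alx1, Lhx2, Dlk1, Nefl on AF031880_at, M87634_at and the 2 probe sets shared by Acta2 and Actc1. Nkx2-1 and Nefm were each lost in 1, the fit without a filter on dim probe sets (adjusted p = 0.0592 for both). The total was 14 without mutant hindbrain replicate 2 and 15 without mutant hindbrain replicate 1, and of these 13 each were among the 27. Of the 27 calls 15 held with the floor at the pooled median (497), 14 with no filter, 17 with no intensity trend, 22 with the 4 mutant arrays alone and 25 with quantile normalization.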

How the data were processed

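The authors deposited a linear intensity for each probe set on each array, and per the labels' protocols the cRNA was hybridised to rat U34A arrays. Which software and algorithm made these values is not given in the sources used here. Trimmed means of the 8 arrays lay between 2504.1 and 2504.8, so no rescaling was done. Of 8799 probe sets, 59 were controls and were left out. In the platform annotation 7018 had 1 symbol, 308 several and 1473 none. Probe sets with several were not named.

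Values below 45.9 (the pooled 25th percentile) were raised to it, and log2 was taken. Probe sets above 255 (the 40th percentile) on at least 2 arrays were tested, 5881 in all. limma 3.58.1 (R 4.3.3; lmFit, eBayes with an intensity trend) fitted 4 group means over 8 arrays, with 4 residual degrees of freedom, two-sided p-values and Benjamini-Hochberg adjustment over all tested probe sets. "At least N-fold" sets the mean log2 of the bright arrays against that of the dim arrays, no array being set below its noise level. Other folds are 2 to the power of the log2 difference and depend on the floor for dim probe sets. Overlap was read on deposited intensities, and values under the floor have no order. The number of arrays limits precision.

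Lists were summarised by the brightest tested probe set of a gene, without a set test. Members and lists were chosen with earlier results of these data known. Named genes were, in each direction, the 15 with the largest difference among those that passed, filled to 15 by the smallest p among genes without overlap; from each list the 4 tested members of smallest p; the 5 in each direction with the smallest interaction p; and Pax6. Other genes in the text are said to be chosen after their values were seen, or are exceptions within a count. Alternatives were another floor, 2 other filters, quantile normalization, no trend, the 4 mutant arrays alone, a replicate block and leaving out each array. Where 1 array was left in a group, it was assumed to vary like the other groups.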

Additional observations from a re-analysis of the deposited data

Results flagged for a closer look

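For 7 of the named probe sets the forebrain arrays lay on one side of the hindbrain arrays in the mutants and on the other side in wild-type, without overlap in either. Of these 7, Marcks, Crybb3, Psat1, Ephx2 and Cabin1 were named for their small interaction p, so they were chosen for this pattern and their number says nothing about how frequent it is. Over all 5881 tested probe sets it was seen in 152 (2.58%). The test of the difference itself passed for none of the 7 (limma, adjusted p = 0.9995, the smallest over all probe sets). The log2 differences in Pax6 homozygous embryos were -1.27 for Marcks, -1.13 for Crybb3, -1.08 for Gnrh1 (the gonadotropin-releasing hormone of neurons born in the nose), -0.27 for Plk1 (a mitotic kinase), -0.53 for Cabin1 (an inhibitor of calcineurin), 0.93 for Psat1 on rc_AI102868_at (an enzyme of serine synthesis) and 1.15 for Ephx2 (an epoxide hydrolase). In wild-type they were 0.41, 3.63, 0.87, 0.19, 0.32, -0.66 and -3.27 in the same order. The other Cabin1 probe set, AF061947_g_at, differed in sign, with 0.97 in the mutants and -0.86 in wild-type. Psat1 on rc_AI102868_g_at, with the same clone in its name, did not reverse. It gave 0.80 in the mutants and 0.06 in wild-type, where the regions overlapped. Gnrh1 read 450.1 and 297 in mutant forebrain and 800 and 747 in mutant hindbrain, and 764 and 457 against 239.7 and 437 in wild-type.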

How the results depend on the processing

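With the replicate number as a block, 65 probe sets passed in the mutants over all 8 arrays (16 higher in forebrain, 49 in hindbrain) and 45 over the 4 mutant arrays alone (34 higher in hindbrain); in wild-type 53 were higher in hindbrain, and 25 genes passed in both genotypes. Deviations of same-numbered arrays correlated with r from 0.275 to 0.465 over the 6 pairs of groups, and array 1 had the higher noise level in each of the 4 groups. The labels do not say what the number marks, and with 2 numbers it was not taken as a pairing. With the block over all 8 arrays, 19 named probe sets that had not passed did so. The count higher in hindbrain was 31 with a floor at the median of all values, and also 31 with no filter. The interaction gave 8, 13 and, without a trend, 4. Counting any probe set of a gene gave 1 smooth muscle gene higher in hindbrain. When 1 array was left out, the mutants gave 14 to 32 calls (5 to 9 higher in forebrain, 7 to 23 in hindbrain), wild-type 23 to 49 (7 to 18 and 14 to 40), the interaction 0 to 1, and 9 to 17 genes passed in both. No named difference that passed changed sign in any setting. Signal near noise limits the results: folds of dim probe sets rest on the floor, and Actc1 ranged from -8.38 to -4.94 over the settings.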

Other observations

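Some genes outside the lists differed between the regions of the mutants without overlap and without passing. Nnat, neuronatin, an imprinted gene of the early brain, read 66131 and 64216 in forebrain and 44281 and 45154 in hindbrain (log2 difference 0.54 ± 0.11, adjusted p = 0.0946). Cdh22, a cadherin, read 11473 and 12695 in forebrain and 6223 and 6203 in hindbrain (0.96 ± 0.17, adjusted p = 0.0603). Mx2, an interferon-induced GTPase, read 2357 and 1862 in forebrain and 725 and 690.3 in hindbrain (1.57 ± 0.29, adjusted p = 0.0652), and 1988 and 1648 against 1879 and 1433 in wild-type; its interaction of 1.42 ± 0.41 did not pass. Dpysl4, a phosphoprotein of growing axons, read 2869 and 2762 in forebrain and 7754 and 5721 in hindbrain (-1.24 ± 0.21, adjusted p = 0.0603).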
